A study of Mus musculus with 4 samples.

Results

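Secreted and metal-binding genes of inflamed tissue, 8 in all, were followed in mouse fat: the acute phase proteins Saa3, Hp, Lcn2, Lrg1, Orm1 and Cp and the metallothioneins Mt1 and Mt2. They were the 8 genes, of 8251 on the array, whose names stood on a fixed list and which had a probe set annotated to that gene symbol alone, and all 8 had one. The list was chosen from an earlier reading of these same arrays, with the intensities on the control and treated arrays known, so the changes below are descriptions and no test was run. Lcn2 had 2 probe sets and the other members 1 each, and the brightest probe set of each gene lay above the floor of 174 intensity units on all 4 arrays.

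The arrays were hybridized with total RNA pooled from epididymal white adipose tissue, the fat pad beside the testis, of male C57BL/6 mice aged 3 to 4 months. Treated mice had received 3 nmol/hr of CL 316243, which activates the β3-adrenergic receptors through which noradrenaline reaches fat cells, during 1, 3 or 6 days (2 of the array titles write the number as 316234). One further array held control mice, and the sources used here do not give what those mice received, the route or the number of mice in a pool. Each of the 4 groups had 1 array, so the differences have no replicate check, carry no p-value and are limited in precision by the number of arrays. A gene is called higher or lower here when its level differed at least 2-fold between 2 arrays after raising dim values to the floor. The log2 error of a change, taken from pairs of probe sets for the same gene, was 0.34 at day 1, 0.27 at day 3 and 0.25 at day 6 for the changes against control, and it holds no variation between animals.

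Acute phase proteins are plasma proteins whose synthesis shifts during inflammation, mainly in the liver, under interleukin 6, interleukin 1 and the transcription factors STAT3, C/EBP and NF-kB. Several are also made by fat cells and by the macrophages and neutrophils that enter fat, and they bind lipid, hemoglobin, iron chelators or copper. Metallothioneins are small cysteine-rich proteins that hold zinc and copper, and their genes respond to metals through the factor Mtf1, to glucocorticoids and to inflammatory cytokines.

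The members did not move as a block. Of the 8, 4 (Saa3, Lcn2, Mt1 and Mt2) were higher at day 1 than in control, where 7.5% of the 6254 genes above the floor were higher, and 2 (Orm1 and Cp) were lower, against 8.36% of those genes. At day 3, Saa3 alone was higher, against a background of 3.81%, and Cp alone was lower, against 3.26%. At day 6, Saa3 was still the 1 member that was higher, against 1.73%, and Lcn2 and Lrg1 were lower, against 1.63%. The 3 comparisons share the control array, and nothing is read from these counts because the members were chosen from the same arrays. The median log2 change of the members was 1.07, 0.09 and -0.64 on days 1, 3 and 6, where all genes above the floor had medians of -0.02, 0.00 and 0.00. The members nearest the 2-fold line at day 1 were Cp just past it, with a log2 change of -1.21, and Lrg1 just short of it, with 0.70. At day 3 these were Cp with -1.45 and Lrg1 with -0.48, and at day 6 Saa3 with 1.18 and Cp with -0.89.

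**Figure D1:**
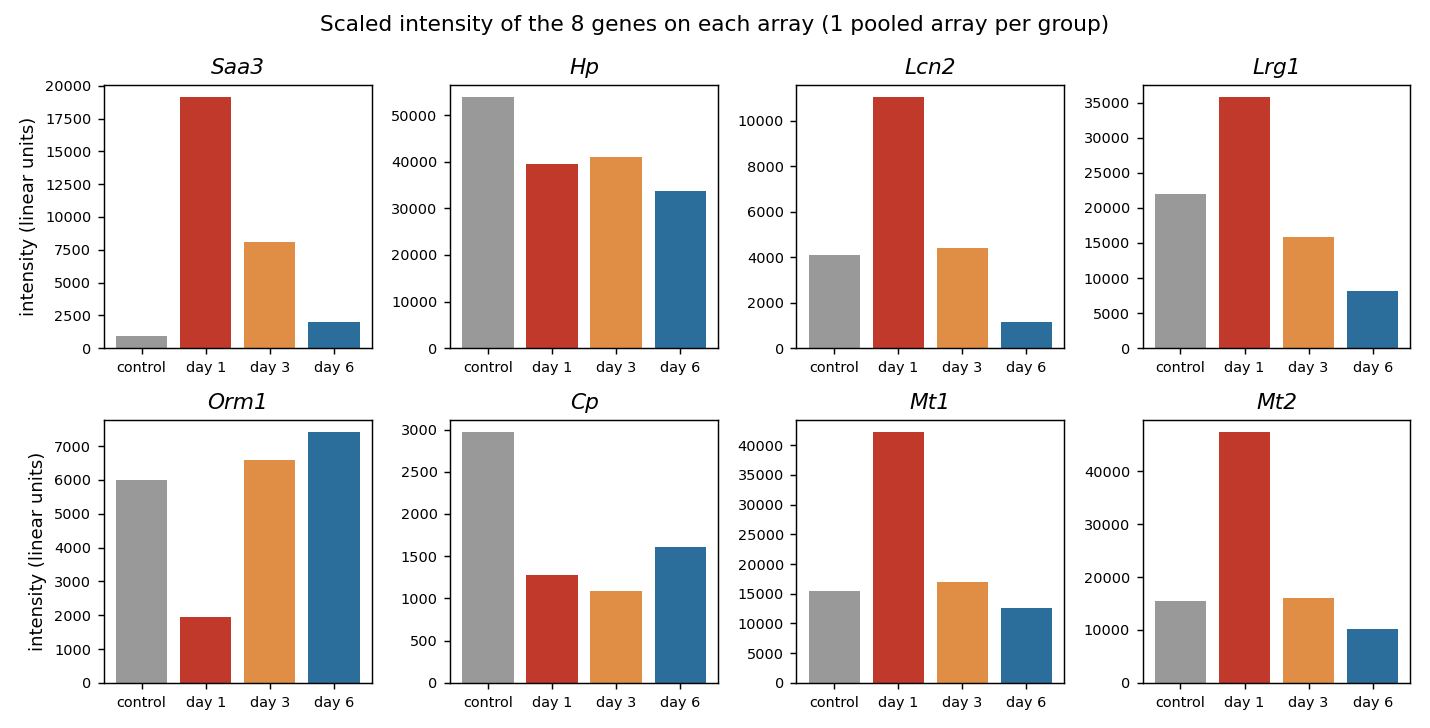
Scaled intensity (linear units, each axis from 0) of the 8 genes on the control, day 1, day 3 and day 6 arrays, 1 bar per pooled array, with no error bars because each group had 1 array. Saa3, Lcn2, Lrg1, Mt1 and Mt2 peaked on day 1, Orm1 had its lowest level there, and Hp and Cp were highest in control.

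**Figure D2:**
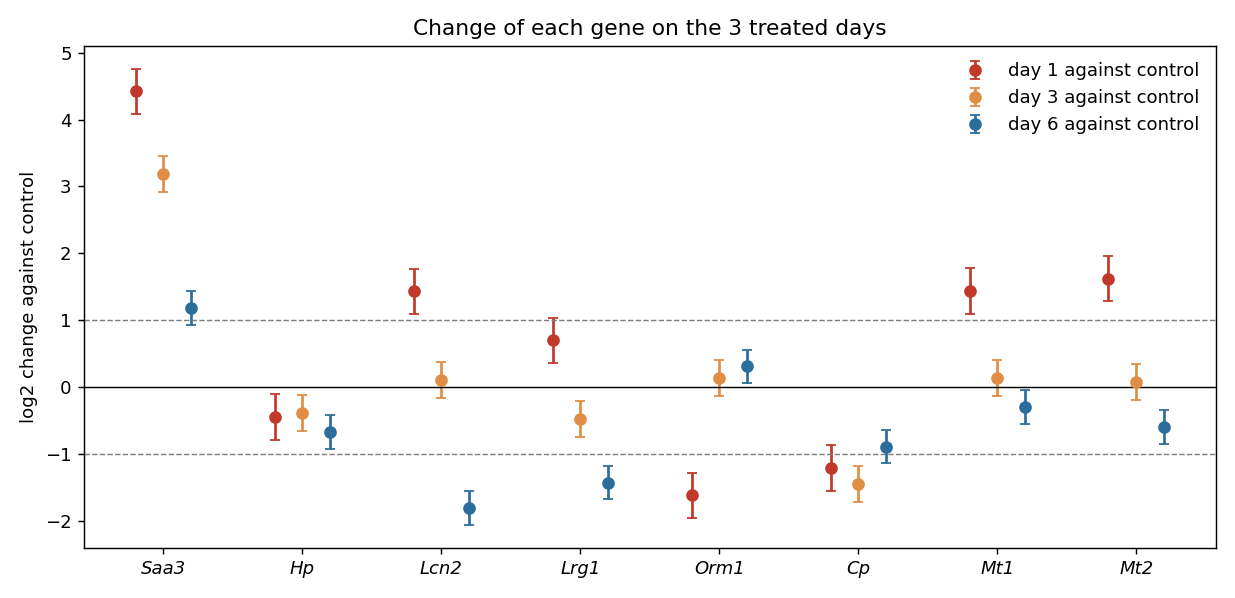
Log2 change of each gene against control on days 1, 3 and 6; error bars are the log2 error between probe sets of the same gene, and dashed lines mark 2-fold. Saa3 lies above the upper line on all 3 days, and Lcn2 lies above it on day 1 and below the lower line on day 6.

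Saa3 encodes a serum amyloid A protein that mice make chiefly outside the liver, in fat and in macrophages. Its intensity was 890 in control, 19104 at day 1, 8100 at day 3 and 2017 at day 6, and each array stood at least 2-fold from the next in that order of levels. Relative to control, Saa3 was thus higher by 21.5-fold, 9.1-fold and 2.27-fold on days 1, 3 and 6. Of the 8 members, Saa3 had the widest range of levels across the 4 arrays.

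Lcn2 encodes lipocalin 2, which binds bacterial iron chelators and is stored in neutrophil granules and made by fat cells. By its brighter probe set Lcn2 had 4089 units in control, 11019 at day 1, 4421 at day 3 and 1167 at day 6. The day 1 level was thus 2.69-fold higher than control, the day 3 level differed 1.08-fold from control, and the day 6 level was 3.5-fold lower. These calls rest on that probe set: the dimmer one, of a class the array marks as not meeting all probe selection rules, had 277, 273, 368 and 429 units in the same order of arrays. With the mean log2 of both probe sets, Lcn2 passed 2-fold on neither day, with a log2 change of 0.70 at day 1 and -0.59 at day 6.

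By the brighter Lcn2 probe set, Saa3 and Lcn2 differed in their distance from control but changed by like amounts between treated arrays. Between days 1 and 3 the log2 change was -1.24 for Saa3 and -1.32 for Lcn2 by its brighter probe set. Between days 3 and 6 it was -2.01 for Saa3 and -1.92 for Lcn2, and these differences do not use the control array. With the mean of both Lcn2 probe sets the 2 changes were -0.44 and -0.85, neither past 2-fold, and the dimmer probe set alone had 0.43 and 0.22. Against control, the change of Saa3 exceeded that of Lcn2 by 2.99, 3.07 and 2.99 on the log2 scale on days 1, 3 and 6.

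The 250 bases before the annotated start of both genes are shown because they are the members that fell most between days 3 and 6. Capitals mark matches to the C/EBP motif TTNNGNAA, searched on both strands. The Saa3 window lies at chr7:46715677-46715926 and the Lcn2 window at chr2:32387740-32387989, both on the minus strand of GRCm38.p6 and read 5′ to 3′ in the direction of the gene, from RefSeq.
Saa3: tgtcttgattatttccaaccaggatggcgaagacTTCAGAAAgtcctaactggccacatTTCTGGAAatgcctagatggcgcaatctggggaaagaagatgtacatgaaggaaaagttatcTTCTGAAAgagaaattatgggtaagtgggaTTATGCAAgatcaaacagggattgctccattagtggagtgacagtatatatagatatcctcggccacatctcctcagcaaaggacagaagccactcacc
Lcn2: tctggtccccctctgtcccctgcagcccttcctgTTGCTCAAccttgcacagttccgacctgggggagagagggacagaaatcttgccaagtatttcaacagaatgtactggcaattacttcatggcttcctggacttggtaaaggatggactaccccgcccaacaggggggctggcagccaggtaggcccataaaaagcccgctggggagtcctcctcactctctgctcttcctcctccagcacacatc
Saa3 had 4 matches and Lcn2 had 1, while 36.8% of the 32851 annotated windows of this length held at least 1. Both Cp windows and the Mt2 window also held 1 match each, and those of Lrg1 and Mt1 held none. Neither the Saa3 nor the Lcn2 window held a match to the STAT motif TTCNNNGAA, found in 7.02% of windows, or to the NF-kB consensus, found in 7.25%. A match is a run of letters and not a known binding site, and its absence refers to these windows only.

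Lrg1 encodes leucine-rich α2-glycoprotein, made by liver and neutrophils and known to modify transforming growth factor β signalling in endothelium. Its levels were 21984 in control, 35758 at day 1, 15791 at day 3 and 8157 at day 6. No array stood 2-fold from its neighbour in the order of levels, and only the distance of day 6 from control, 2.7-fold lower, and of day 3 from day 1, 2.26-fold lower, passed the line among the comparisons made. The day 1 level was 1.63-fold above control.

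Hp encodes haptoglobin, which captures free hemoglobin and which fat cells as well as liver secrete. Hp had 53810 units in control, 39420 at day 1, 40938 at day 3 and 33727 at day 6. All 3 treated arrays lay below control, by 1.37-fold, 1.31-fold and 1.6-fold, and on none of them did Hp pass 2-fold. Its highest and lowest arrays also differed by 1.6-fold, the narrowest range among the members.

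Orm1 encodes orosomucoid 1, or α1-acid glycoprotein, a plasma carrier of small lipophilic molecules. It had 5982 units in control, 1948 at day 1, 6594 at day 3 and 7408 at day 6. The day 1 array was the only one apart, 3.07-fold lower than control, while days 3 and 6 lay within 1.24-fold of control. Day 3 was 3.39-fold higher than day 1 for Orm1. It was the 1 member higher at day 3 than at day 1, against 5.84% of genes, while 5 members (Saa3, Lcn2, Lrg1, Mt1 and Mt2) were lower, against 6.28%.

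Cp encodes ceruloplasmin, a copper-containing ferroxidase that carries most of the copper of plasma. Cp had 2968 units in control, 1282 at day 1, 1085 at day 3 and 1606 at day 6. It was 2.32-fold lower at day 1, 2.74-fold lower at day 3 and 1.85-fold lower at day 6, so the 3 treated arrays lay together below control. Among the treated arrays, Cp differed 1.18-fold between day 3 and day 1 and 1.48-fold between day 6 and day 3.

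Mt1 and Mt2 changed in parallel. Mt1 had 15524 units in control, 42185 at day 1, 16966 at day 3 and 12647 at day 6. Mt2 had 15389 units in control, 47381 at day 1, 16128 at day 3 and 10176 at day 6. Day 1 stood apart for both genes, 2.72-fold higher than control for Mt1 and 3.08-fold for Mt2, and the remaining arrays lay within 1.23-fold of control for Mt1 and 1.51-fold for Mt2. The log2 changes against control of Mt1 and Mt2 differed by -0.18 at day 1, 0.06 at day 3 and 0.30 at day 6. The error of 0.25 at day 6 is that of 1 change, and a difference between 2 changes has a larger error. The 0.30 is therefore not read as a difference beyond the error. From day 3 to day 6, where 2 members (Saa3 and Lcn2) were lower, against 2.65% of genes, and 0 were higher, against 1.5%, Mt1 and Mt2 differed 1.34-fold and 1.58-fold, both with the lower level on day 6.

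The windows of 250 bases before the annotated starts of Mt1 and Mt2 are shown here. Both genes peaked together, and metal response elements are a known control of this gene pair. Capitals mark the core of that element, TGCACNC or TGCGCNC, searched on both strands. On the plus strand of GRCm38.p6, from RefSeq, the Mt1 window lies at chr8:94178839-94179088 and the Mt2 window at chr8:94172368-94172617.
Mt1: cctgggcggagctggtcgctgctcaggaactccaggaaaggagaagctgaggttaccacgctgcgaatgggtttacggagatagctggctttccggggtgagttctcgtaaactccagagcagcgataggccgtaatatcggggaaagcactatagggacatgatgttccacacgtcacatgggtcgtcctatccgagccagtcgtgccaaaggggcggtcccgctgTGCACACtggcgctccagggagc
Mt2: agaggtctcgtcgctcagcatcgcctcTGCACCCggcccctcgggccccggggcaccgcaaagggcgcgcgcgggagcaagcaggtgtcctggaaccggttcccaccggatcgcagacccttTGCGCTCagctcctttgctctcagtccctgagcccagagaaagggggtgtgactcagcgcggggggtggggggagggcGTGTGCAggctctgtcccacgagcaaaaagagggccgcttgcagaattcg
Mt1 had 1 match and Mt2 had 3, of which 1 was on the opposite strand, and 21.4% of the 32851 windows held at least 1. These counts refer to the 250 bases before each annotated start only. Elements beyond these windows were not searched, so the counts do not compare the 2 genes in full. Of the other members with a window (Saa3, Lcn2, Lrg1 and Cp), none held a match to this core. The cAMP response element TGACGTCA, searched because the receptor acts through cAMP, was in no member window and in 1.55% of all windows. The antioxidant response element core TGACNNNGC, found in 10.2% of windows, had 1 match in Mt2 and 1 in Lrg1.

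Near relatives of the members on the array, named here outside the rule for named genes, did not all share their course. Mt3, the gene next to Mt2 on the chromosome, had 2107 units in control, 2617 at day 1, 2541 at day 3 and 2524 at day 6, and Mt4 was below the floor on all 4 arrays. Mt3 and Mt4 are metallothioneins best known from brain and from stratified epithelium. Saa4, the neighbour of Saa3, was also below the floor throughout.

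Saa2, a liver-type serum amyloid A, was higher than control on all 3 treated days, as was Saa3, by 1 of its 2 probe sets. That probe set, of a class the array marks as shared within a sequence family, had 160 units in control, 870 at day 1, 468 at day 3 and 494 at day 6, at least 5.01-fold higher at day 1, at least 2.7-fold at day 3 and at least 2.84-fold at day 6. Unlike Saa3, it was not lower at day 6 than at day 3. The other probe set for Saa2 was below the floor on all arrays, and cross-hybridization between family members was not tested.

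The orosomucoids went different ways. Orm2 had 270 units in control, 732 at day 1, 1093 at day 3 and 289 at day 6, which is 2.71-fold higher at day 1 and 4.04-fold higher at day 3, on the days when Orm1 was 3.07-fold lower and within 1.1-fold of control. Orm3 had 776 units in control, 425 at day 1, 442 at day 3 and 694 at day 6 and passed 2-fold on no day. These 3 genes are close copies of each other, so probes of one may read another.

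**Figure D3:**
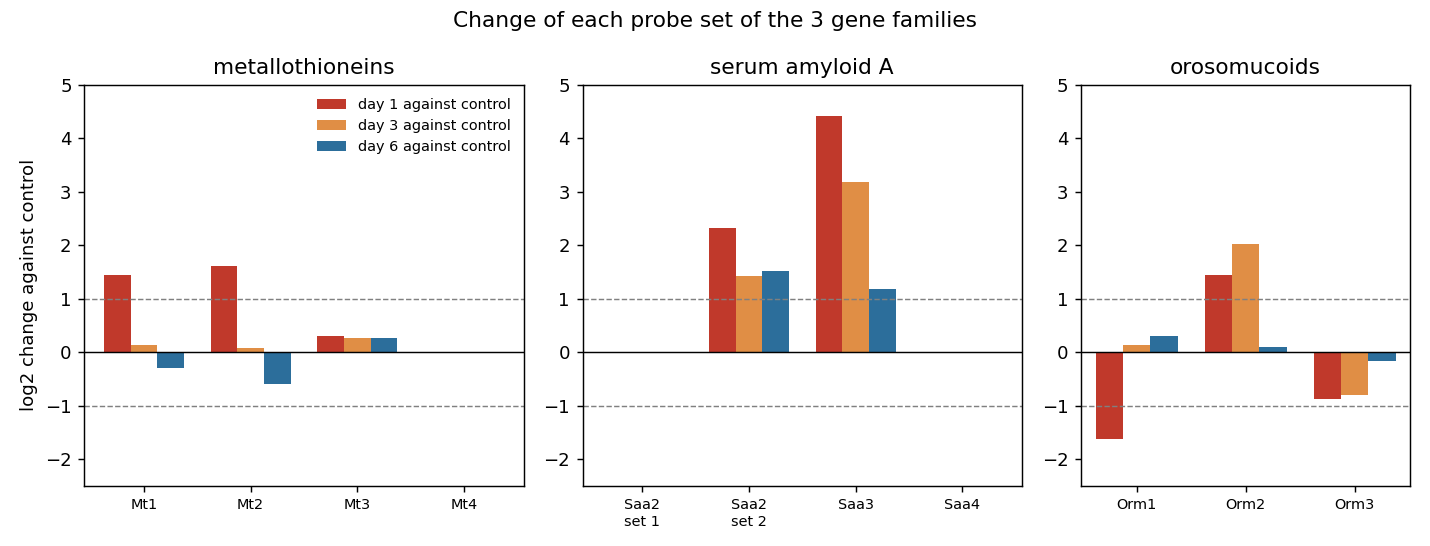
Log2 change against control on days 1, 3 and 6 for every probe set annotated to 1 metallothionein, serum amyloid A or orosomucoid gene; dashed lines mark 2-fold, and a value at 0 for Mt4, Saa4 and the first Saa2 probe set means that it was at the floor on all arrays. Mt1 and Mt2 share their course while Mt3 stays within 2-fold, and Orm1 and Orm2 lie on opposite sides of 0 on day 1.

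Genes whose course was most like that of a member were found by the root mean square difference of their log2 changes on days 1, 3 and 6, among 5289 other genes at least 2 times the floor on 1 array or more; all 3 changes share the control array. For Saa3 the nearest were Timp1, an inhibitor of matrix metalloproteinases, at 0.55, Adam8, a leukocyte metalloprotease, at 0.56, and Lilr4b, a leukocyte receptor, at 0.70. Timp1 had 1160 units in control and 18800, 7594 and 1598 on days 1, 3 and 6. For Lcn2 they were Nme1, a nucleoside diphosphate kinase, at 0.55, Csf1, the growth factor of macrophages, at 0.56, and Dab2, an endocytic adaptor, at 0.58. No gene lay within 0.3 of Saa3 or, by its brighter probe set, of Lcn2. That limit is close to the error of 1 change, 0.25 to 0.34, and a difference between 2 changes has a larger error. A distance past 0.3 is therefore not read as a lack of genes with a like course.

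Lrg1 had 2 genes within 0.3, Nap1l1, a histone chaperone, at 0.19 and Sf3a1, a splicing factor, at 0.21, followed by the phosphate transporter Slc20a1 at 0.30. Cp had 42 genes within that distance, led by the kinase Tnk2 at 0.07 and by Cpxm2 and Gpx3, both at 0.14. Gpx3, a secreted glutathione peroxidase, had 34261 units in control and 13810, 11632 and 16126 on days 1, 3 and 6. Thus the early drop and the low levels that followed were seen for Cp and Gpx3 alike.

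Of the remaining members, Mt1 had 104 genes within 0.3, the nearest being Pdia6, a protein disulfide isomerase, at 0.08, and Relb, an NF-kB subunit, and Tsr1, a ribosome assembly factor, both at 0.09. Mt2 had 32, led by the stress phosphatase subunit Ppp1r15a at 0.06, the kinase Fes at 0.11 and the kinase Nek6 at 0.13. Orm1 had 56, led by Gnpat, an enzyme of plasmalogen synthesis, at 0.01, Tmem106c at 0.06 and the heme-binding Hebp1 at 0.08. Hp had 402, led by Wtap and Cpne3 at 0.03 and Cops4 at 0.06. Between members, Mt1 and Mt2 were closest, at 0.21, and Lcn2 and Lrg1 next, at 0.58, while Saa3 was at least 2.61 from every other member.

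The other acute phase plasma proteins on the array were mostly dim. Of 36 listed genes 27 were measured and 12 lay above the floor on at least 1 array, of which 6 were higher and 1 was lower at day 1, 3 higher and 1 lower at day 3, and 2 higher and 1 lower at day 6. Their median log2 change was 1.12, 0.00 and 0.00 on the 3 days. Beside these counts and those of the lists below stand the shares over all genes above the floor. Of those genes, 7.5% were higher and 8.36% lower at day 1, 3.81% and 3.26% at day 3, and 1.73% and 1.63% at day 6. Il1rn, the interleukin 1 receptor antagonist, had 113 units in control and 9532, 1608 and 119 on days 1, 3 and 6, at least 54.9-fold higher at day 1 and at least 9.26-fold at day 3. Ptx3, a pentraxin made outside the liver, was at least 27.4-fold higher at day 1, with 4751 units against 88 in control. Cd14, a coreceptor of endotoxin, was 7.4-fold higher at day 1, with 17872 against 2415. The member lower on each day, named after its values were seen, was Lbp, the endotoxin-binding protein, with log2 changes of -1.98, -1.74 and -1.08.

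Of 9 plasma proteins that fall in the acute phase of the liver, 8 were measured and 5 lay above the floor. Rbp4, the retinol carrier that fat cells also secrete, was 2.57-fold lower at day 1, with 6073 units against 15636 in control, and within 1.5-fold of control on the later days. Alb, the gene for albumin, had 487 units at day 6 against 140 in control, which is below the floor, so at least 2.8-fold higher. The list had 0 higher and 1 lower at day 1, 0 in both directions at day 3, and 1 higher and 0 lower at day 6, with medians of 0.00, 0.00 and 0.57.

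Genes that act upstream of the acute phase response passed 2-fold mainly at day 1. The share of all genes past 2-fold was also largest on that day, with 7.5% higher and 8.36% lower. Of 27 cytokines, receptors, kinases and factors above the floor, of 33 listed, 14 were higher and 2 lower at day 1, 1 higher and 0 lower at day 3, and 0 in both directions at day 6. The medians were 1.00, 0.00 and 0.00 on the log2 scale. Il1b had 13098 units at day 1 against 36 in control, at least 75.4-fold higher, and Il6 had 2375 against 25, at least 13.7-fold higher. Both cytokines were below the floor in control and on days 3 and 6. Il1r2, the decoy receptor of interleukin 1, was at least 36.4-fold higher at day 1, and Socs3, the feedback inhibitor induced by STAT3, was 10.2-fold higher, with 2917 against 285. On the day 3 array Saa3 had 8100 units, against 890 in control, and Il6 had 16 and Il1b 121 units. The part of these cytokines in the course of Saa3 was not tested.

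Glucocorticoid genes showed no common direction. Of 10 genes, all above the floor, 2 were higher and 3 lower at day 1, 0 higher and 3 lower at day 3, and 1 higher and 1 lower at day 6, with medians of -0.35, -0.43 and -0.12. Hsd11b1, the enzyme that regenerates active glucocorticoid inside fat cells, was lower on each treated day, by 4.3-fold, 4.58-fold and 2.02-fold, with 6177 units in control. Among genes that glucocorticoids induce, Per1 was 3.45-fold higher at day 1 and Dusp1 2.33-fold higher, while Zbtb16 was 3.25-fold lower at day 1 and 2.13-fold lower at day 3.

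No zinc or copper handling gene passed 2-fold at day 1, where Mt1 and Mt2 peaked. Of 22 above the floor, of 31 listed, 0 were higher and 0 lower at day 1, 1 was lower at day 3 and 0 passed at day 6, with medians of 0.07, -0.11 and -0.02. Past 1.5-fold, 3 were higher at day 1 (Slc30a1 by 1.59-fold, Slc31a1 by 1.7-fold and Atp7a by 1.69-fold). On that day 2 were lower (Slc30a9 by 1.61-fold and Slc39a3 by 1.85-fold). The gene lower at day 3 was Slc39a8, a zinc and manganese importer, which had 248 units at day 3 against 693 in control, 2.79-fold lower. Mtf1, the metal-sensing factor of metallothionein genes, chosen for its role after its values were seen, had 193 units in control, 253 at day 1, 98 at day 3 and 33 at day 6, at or near the floor throughout. The part of metals in the courses of Mt1 and Mt2 was not tested.

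Iron and heme genes included the relative of ceruloplasmin. Of 16 above the floor, of 27 listed, 2 were higher and 3 lower at day 1, 2 higher and 0 lower at day 3, and 1 higher and 1 lower at day 6, with medians of -0.06, 0.09 and 0.24. Heph encodes hephaestin, a membrane ferroxidase related to Cp, and was 6.75-fold lower at day 1, with 362 units against 2446 in control, 1.96-fold at day 3 and 1.27-fold at day 6. Hmox1, the heme-degrading enzyme, was higher on all 3 days, by 6.61-fold, 3.56-fold and 2.01-fold. Slc11a1, a metal transporter of macrophage phagosomes, was 4.83-fold and 3.86-fold higher on days 1 and 3, and Bmp6, a regulator of hepcidin, was 2.4-fold lower at day 1 and 2.26-fold lower at day 6.

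Receptors and partners of the member proteins were measured for 11 of 16 listed genes, and 9 lay above the floor. Of these, 2 were higher and 1 lower at day 1, and 0 were higher and 1 lower at days 3 and 6, with medians of -0.17, -0.23 and 0.00. Fpr2, a formyl peptide receptor that responds to serum amyloid A, was at least 6.51-fold higher at day 1, with 1130 units against 28 in control. Slc22a17, the lipocalin 2 receptor, was 2.63-fold lower at day 1, with 249 against 653. Mmp9, the protease to which lipocalin 2 binds in neutrophils, was 12.6-fold higher at day 1 and at least 2.03-fold lower on days 3 and 6, by its brighter probe set.

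**Figure D4:**
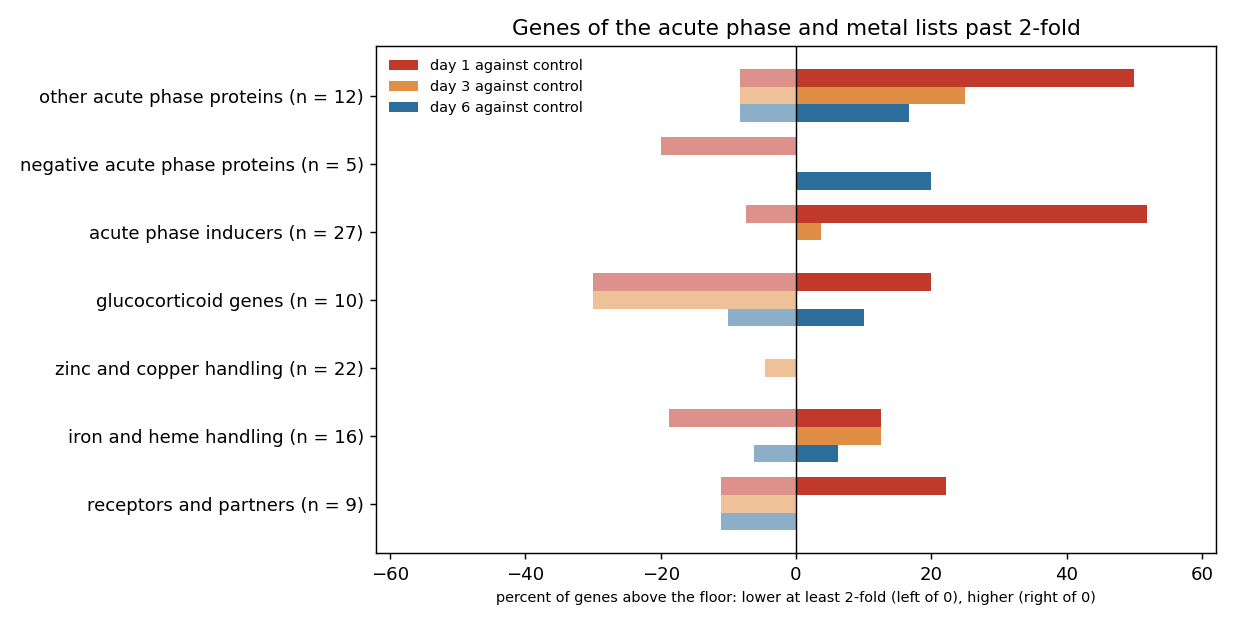
Percent of the genes above the floor in each list that were at least 2-fold higher (right of 0, full colour) or lower (left of 0, pale) than control on days 1, 3 and 6; n is the number of genes above the floor. The lists of other acute phase proteins and of acute phase inducers reach furthest to the right at day 1, with 6 of 12 and 14 of 27 genes, while 0 of 22 zinc and copper genes passed on that day. Of all genes above the floor, 7.5%, 3.81% and 1.73% were higher and 8.36%, 3.26% and 1.63% lower on days 1, 3 and 6.

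Cell type markers were read on the same arrays, since neutrophils, macrophages, liver and mesothelium also express some of the members. In bulk RNA, fewer cells of a type and less RNA per cell cannot be told apart. All 8 measured fat cell markers were above the floor on every array, with Adipoq, the adiponectin gene, at 52054 units in control and 25354, 42608 and 55288 on days 1, 3 and 6, so the label of the tissue is met. The summed fat cell markers were 178844 in control and 100932, 153782 and 188250 on the treated days, lowest on the array where Orm1 was lowest, and 4 of the 8 markers were lower at day 1, 1 at day 3 and 1 at day 6. Their part in the course of Orm1 was not tested.

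The summed level of 12 neutrophil markers was 4236 in control and 76623, 5109 and 3647 on days 1, 3 and 6, highest where Lcn2, Lrg1, Mt1, Mt2 and Saa3 were highest. S100a8 and S100a9 carried the day 1 sum, and the other 10 markers summed to 3703 in control and 9644, 3074 and 2991 on the treated days. This sum, like those without Upk3b and without Eng, was chosen after the values were seen. Of the 10 above the floor on some array, 5 were higher and 2 lower at day 1, 2 higher and 2 lower at day 3, and 0 higher and 2 lower at day 6. S100a8, a calcium-binding protein of neutrophils, had 40273 units at day 1 against 414 in control. Mpo and Ngp were below the floor on all arrays, but other markers of this list without a day 1 peak were detected. Named after their values were seen, Elane had 593 units in control and 292, 376 and 593 on days 1, 3 and 6. Prtn3 had 757 and 164, 255 and 153, and Camp had 460 and 242, 546 and 594 in the same order. The 11 macrophage markers summed to 26536 in control and 71245, 63249 and 28697 on days 1, 3 and 6, and Mpeg1, a macrophage perforin, had 1661 units in control and 14118, 10725 and 4220. Of the 11, 7 were higher at day 1, 6 at day 3 and 1 at day 6, and 0 were lower on any day, and Saa3 was also higher than control on each of these days. Of the macrophage markers 6 were highest at day 1 and 5, among them Adgre1, Cd68 and Lyz2, at day 3. Their part in the courses of the members was not tested.

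Of 14 measured hepatocyte markers, 8 were below the floor on all arrays, among them Ttr, Apoh, Fgb and Fgg, and the list's sum, 42971 in control and 23914, 44771 and 52151 on days 1, 3 and 6, was carried by Cyp2e1, which fat also expresses. Of the 6 above the floor, 0 were higher at day 1 and at day 3, and Alb and Serpina1b were higher at day 6. The 7 mesothelial markers summed to 8957 in control and 4482, 4133 and 4568 on days 1, 3 and 6, and without Upk3b, which carried most of the sum, to 3602 in control and 2201, 1845 and 2192. Of the 7, 2 were lower at day 1, 3 at day 3 and 3 at day 6, while Krt8, Krt18, Wt1 and Krt7 passed 2-fold on no day. Upk3b, a uroplakin of mesothelium, was 2.35-fold, 2.34-fold and 2.25-fold lower on the 3 days, and Cp was lower than control by 2.32-fold, 2.74-fold and 1.85-fold on the same days. The part of mesothelium in the course of Cp was not tested.

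The 7 endothelial markers summed to 16675 in control and 19649, 12248 and 16965 on days 1, 3 and 6, and without Eng, which carried the day 1 sum, to 9162 in control and 7269, 5864 and 9400. Of the 7, 0 were higher on any day, 2 (Pecam1 and Tek) were lower at day 1, 1 at day 3 and 0 at day 6, and the median on the log2 scale was -0.72 at day 1. The 9 measured lymphocyte markers, of which 5 were below the floor throughout, summed to 1762, 1514, 1502 and 1725 from control to day 6.

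The control and day 6 arrays also carried transcripts of genes known from the neighbouring epididymis. Lcn5, an epididymal lipocalin, had 3322 units in control, 63 at day 1, 7 at day 3 and 8031 at day 6. Adam7, another epididymal gene, named after its values were seen, had 2655, 200, 251 and 1847 units in the same order. The 10 measured epididymal and testicular markers summed to 7679 in control and 9903, 2093 and 12397 on days 1, 3 and 6, and the day 1 sum was carried by Star, a cholesterol transporter of steroid-making cells, with 7985 units. Prm2, Ldhc and Cyp11a1 of that list were below the floor on all arrays. Cp had its 2 highest levels in control and at day 6, 2968 and 1606 units. Saa3, Mt1, Mt2 and, by its brighter probe set, Lcn2 had their 2 lowest levels on these 2 arrays. Hp, Lrg1 and Orm1 did not divide the arrays in this way. The comparison of day 3 with day 1, arrays on which Lcn5 was below the floor, gave Saa3 2.36-fold, Lcn2 2.49-fold, Lrg1 2.26-fold, Mt1 2.49-fold and Mt2 2.94-fold lower at day 3, and Cp 1.18-fold lower. The part of this tissue in the levels of the members was not tested.

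**Figure D5:**
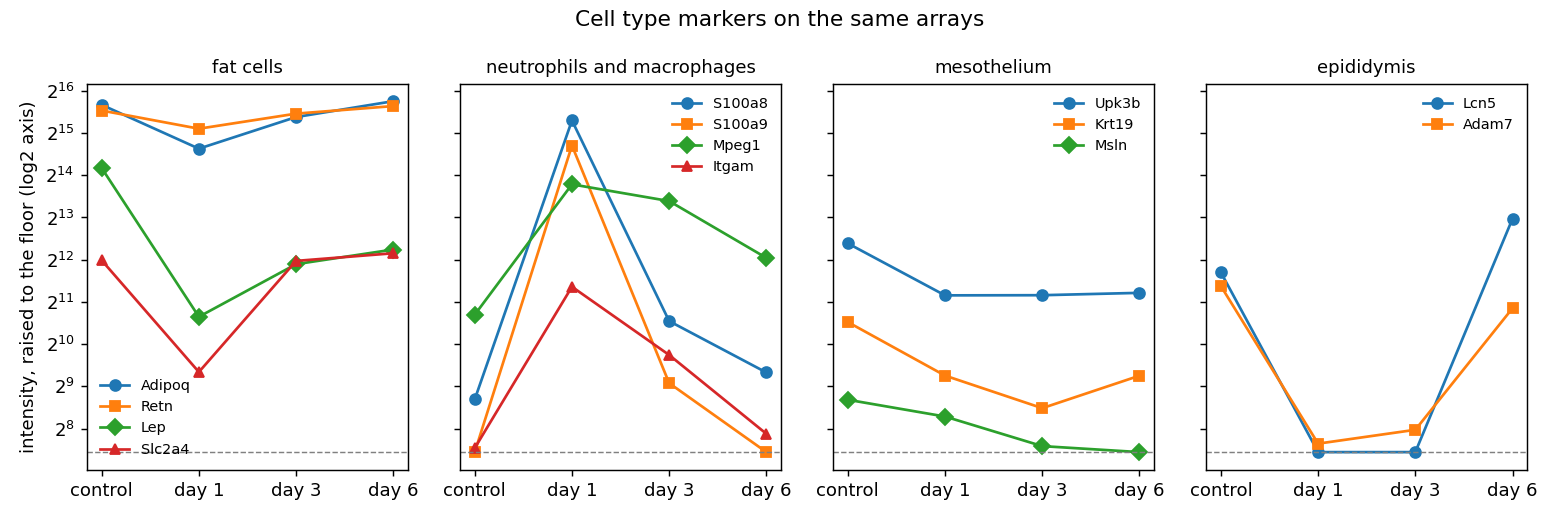
Intensity of cell type markers on the control, day 1, day 3 and day 6 arrays, raised to the floor (dashed line) and drawn on a log2 axis. The markers drawn for neutrophils (S100a8, S100a9) and for macrophages (Mpeg1, Itgam) are highest at day 1, Upk3b, Krt19 and Msln of mesothelium are highest in control, and the epididymal genes Lcn5 and Adam7 are high in control and at day 6 and near the floor on days 1 and 3.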

How the data were processed

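The deposited table holds, per the labels, 1 array of pooled RNA for each of 4 groups, as linear probe set intensities. The sources used here do not give the authors' software, background step or normalization. The deposited intensities are whole numbers, 12.1% to 12.4% of them at or below 0, with medians of 315 to 316 per array, so the arrays were close in distribution as deposited. Of 12488 probe sets, 66 controls were left out. Each of the 12422 others was scaled to a common mean between the 2nd and 98th percentiles (factors 0.998 to 1.001), then set to no less than 174 units, the 40th percentile of all values, and put on the log2 scale with numpy 2.4.6 and pandas 2.3.3. At most 60.1% of values per array lay above the floor.

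Symbols came from the array's annotation: 10833 probe sets had 1 symbol, 396 had several and 1193 had none listed. Each gene was represented by its brightest probe set. A fold with the dimmer value at the floor is a lower bound. The error between probe sets is the median absolute difference between the changes of the 2 brightest probe sets of a gene, scaled to a normal SD and divided by the square root of 2, over 791 to 818 genes above the floor on both arrays.

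Besides the members, the rule for named genes took the 3 nearest genes of each member, up to 4 genes past 2-fold per list and up to 4 markers per cell type. The members, the 7 lists and the 8 marker lists were chosen with earlier results of these data known. No test was run, as each group had 1 array. The calling steps were tested on simulated data. Alternatives were no scaling, quantile normalization, floors at the 25th and 60th percentiles, a pseudocount of 100 in place of the floor, the mean of all probe sets, and calls past 1.5-fold and 3-fold. Promoter windows were read from RefSeq's GRCm38.p6 table, which held 6 of the 8 members, with 2 windows for Cp.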

Additional observations from a re-analysis of the deposited data

Results flagged for a closer look

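By its brighter probe set, Lcn2 moved in opposite directions on different treated days: its log2 change against control was 1.43 at day 1 and -1.81 at day 6, and its dimmer probe set did not follow, at -0.02 and 0.63. Lcn5, the epididymal lipocalin gene, had a log2 change of -4.26 at day 1, where it was below the floor, and of 1.27 at day 6. Mmp9 had a log2 change of 3.65 at day 1 and of -1.02 at day 3, where its level was below the floor. With 1 array per day, none of these differences between days was tested.

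A probe set annotated to both Orm1 and Orm2, and therefore assigned to neither above, had 12469 units at day 6 against 8391 in control. On the same probe set day 1 had 3672 units, 2.29-fold lower than control, and day 3 had 10221 units.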

How the results depend on the processing

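The counts past 2-fold of members, of list genes pooled over all lists and of all probe sets were compared between settings. Without scaling, with quantile normalization and with a pseudocount of 100 in place of the floor, each stayed within 1.5 times its value. The counts of single lists did not all do so: 11 moved further with the pseudocount and 1 with quantile normalization. With the pseudocount, the acute phase inducers higher at day 3 went from 1 to 0. Plasma proteins that fall in the acute phase and were lower at day 1 went from 1 to 2. With quantile normalization, the inducers lower at day 1 went from 2 to 1. Of the log2 changes of single members over the 6 alternatives that alter them, 236 moved by less than 1 error between probe sets, 4 moved more and 0 changed sign after passing 2-fold. The 4 are those of Lcn2 with the mean of its 2 probe sets: 0.70 at day 1, -0.59 at day 6, -0.44 from day 1 to day 3 and -0.85 from day 3 to day 6. This left 3 members higher at day 1 (Saa3, Mt1 and Mt2) and 1 lower at day 6. It also left Saa3, Lrg1, Mt1 and Mt2 lower between days 1 and 3, and 1 member lower between days 3 and 6. Many of the 236 values could hardly move, so their number says little about how firm the changes are. Members other than Lcn2 had 1 probe set each, all members lay above the floors tried, and the scaling factors were 0.998 to 1.001.

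The threshold itself set several counts of members. Past 3-fold, 2 members were higher and 1 was lower at day 1, 0 were lower at day 3, 0 were higher and 1 was lower at day 6, and 0 were lower from day 1 to day 3. Past 1.5-fold, 5 were lower at day 6 and 4 from day 3 to day 6.

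The floor set the counts over all probe sets. With the floor at the 25th percentile, 956 were higher and 1041 lower at day 1, 574 higher and 558 lower at day 3, and 433 higher and 414 lower at day 6. With the floor at the 60th percentile these counts, higher before lower, were 373 and 378 at day 1, 167 and 134 at day 3, and 81 and 71 at day 6. Past 1.5-fold they were 1349 and 1474, 828 and 864, and 655 and 648 on the 3 days. Past 3-fold they were 285 and 220, 108 and 69, and 30 and 31. The counts reported at 2-fold were 625 and 658, 313 and 265, and 157 and 146.

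For genes of the 7 lists, 7 were lower at day 1 with the floor at the 60th percentile, 19 past 1.5-fold and 4 past 3-fold. At day 3, 11 were higher and 15 lower past 1.5-fold, and 2 were lower past 3-fold. At day 6, 11 were higher with the floor at the 25th percentile, 1 was higher and 2 lower with it at the 60th, 10 were higher and 11 lower past 1.5-fold, and 0 passed 3-fold in both directions. The members lie well above the floor, and genes near it, such as Mtf1, Alb and Saa2, have changes that depend on where it is set. The cause of these shifts was not tested beyond the settings named.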
